A study of Bos taurus with 24 samples.

Results

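The ruminant trophoblast secreted proteins are 3 gene families of the outer cell layer of the bovine embryo: the pregnancy-associated glycoproteins (PAG), interferon tau (IFNT) and the trophoblast Kunitz domain proteins (TKDP). They were described here in 24 single early blastocysts, as every row of the count table whose symbol is PAG followed by digits, or starts with IFNT or TKDP, and that held at least 50 counts summed over the 24 embryos. Of 24621 genes in the table, 13 rows fitted by name and 2 reached the minimum, PAG2 with 2096 counts and IFNT with 1596 counts. Blastocysts were of 3 kinds, with 8 embryos each. Embryos derived in vivo (5 males and 3 females) were flushed from superovulated Holstein cows. Embryos produced in vitro came from oocytes of slaughterhouse ovaries, matured and cultured either with fetal bovine serum (3 males and 5 females) or in serum-free medium (5 males and 3 females). The serum-free system also differed in other supplements, among them epidermal growth factor, albumin, insulin, transferrin and selenium. Every embryo was a whole early blastocyst of the highest morphological grade, sexed after collection. The days from insemination to collection were not the same for all embryos. The part of embryo age and of these supplements in the differences below was not tested. Each embryo was 1 replicate. The in vivo embryos came from 3 donor cows and the in vitro embryos from 3 independent experiments, but the labels do not tie an embryo to a cow or an experiment, so the p-values measure the spread between embryos and embryos of 1 cow or 1 experiment may be more alike.

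The trophectoderm is the epithelium that encloses the blastocyst cavity, and in ruminants it elongates and secretes for a long period before it attaches to the uterus. IFNT, a type I interferon found in ruminants, is its signal to the mother: it acts on the uterine lining so that the corpus luteum, the source of progesterone, is kept. The PAG proteins are glycoproteins of the aspartic peptidase family, most of them thought to be without enzyme activity, and some are measured in maternal blood as a pregnancy test. PAG2 belongs to the older branch of the family, which is made widely across the trophoblast. The TKDP proteins carry a domain related to protease inhibitors.

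Whole-transcriptome depth limited what could be seen of low genes. The embryos held between 3253051 and 9000447 counts, so that the 3 counts taken as the detection floor stood for 0.337 to 0.922 counts per 1000000 counts of the library (CPM). Levels below are CPM on library sizes normalized by the trimmed mean of M-values, and they are compared between embryos for 1 gene, not between genes, since gene lengths were not used. In bulk RNA of a whole embryo, fewer trophectoderm cells and less transcript per cell cannot be told apart. Serum female B2 was least like the other embryos of its condition (mean Spearman rho 0.789 across genes, against 0.870 to 0.900 for the other 7 serum embryos).

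At the early blastocyst stage a single gene held nearly all uniquely placed fragments of the PAG rows that fitted the name rule. PAG2 held 96.1% of the counts of the 10 PAG rows, and the other 9 rows held 84 counts in all. PAG7 had the most of these (34 counts), followed by PAG10 (16), PAG12 (13), PAG19 (9), PAG4 (8), PAG17 (2), PAG20 (1) and PAG6 (1), and PAG9 had none. The 2 Kunitz domain rows were as low, with 31 counts for TKDP1 and 9 for TKDP4. The members just inside and just outside the minimum were therefore far apart, with 1596 counts for IFNT and 34 for PAG7.

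**Figure D1:**
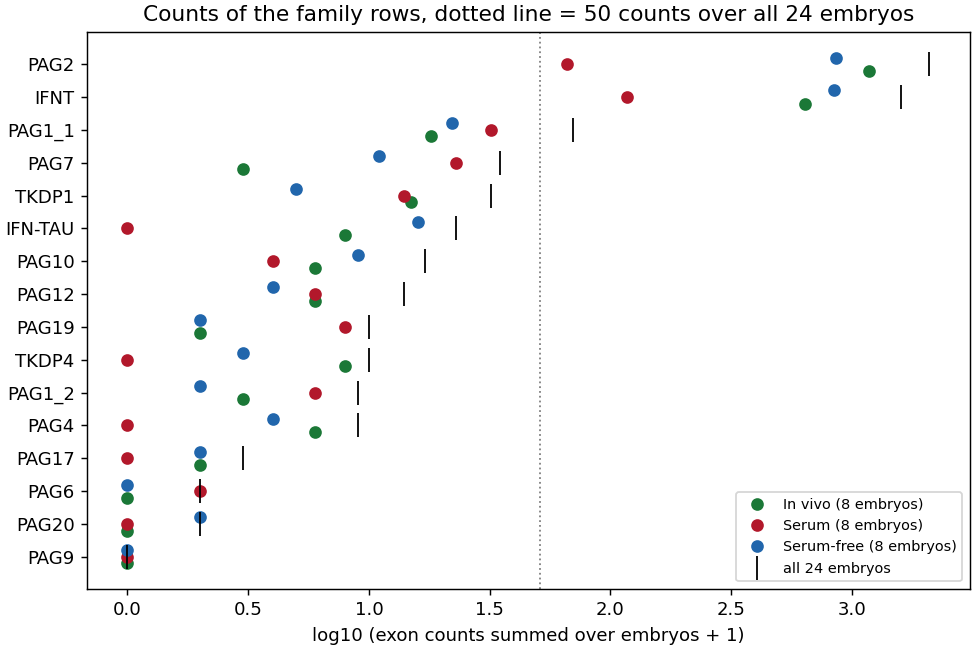
Exon counts of each family row, on the x axis as log10 of the summed counts plus 1, with 1 row per gene on the y axis. Coloured points are sums over the 8 embryos of a condition, black ticks are sums over all 24 embryos and the dotted line marks 50 counts. PAG2 (2096) and IFNT (1596) stand clear of the other rows; PAG1_1, PAG1_2 and IFN-TAU are drawn although their names fall outside the rule.

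The low rows were not spread evenly over embryos. Of the 34 PAG7 counts, 19 came from serum female B2 and 10 from serum-free male C1. The 9 low PAG rows had at least 1 count in 7 of 8 in vivo embryos (19 counts in all), in 5 of 8 serum embryos (38 counts, 25 of them in B2) and in 8 of 8 serum-free embryos (27 counts). The 3 serum males held no count of any PAG or TKDP row that fitted the name rule. Of the rows left out by name, PAG1_1 held 8 counts in B5 and PAG1_2 held 3 in B7. TKDP counts were found in 8 of 8 in vivo embryos (21 counts), in 3 of 8 serum embryos (13 counts) and in 3 of 8 serum-free embryos (6 counts). Apart from PAG7 in B2 (4.50 CPM) and in C1 (1.91 CPM), most of these rows held a few counts at most in an embryo, so no difference between conditions can be read from them.

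Related copies make the identity of these rows less certain than that of a single-copy gene. In the RefSeq gene table of cattle (ARS-UCD2.0, used for names and neighbours only), 20 PAG genes lie in 1 cluster, in which PAG10 and PAG12 are the neighbours of PAG2, and 4 genes are named as interferon tau. The symbol IFNT is a synonym of 2 of these 4 genes, IFNT2 and IFNT3. Only fragments with a unique place in the genome were counted, so fragments shared by near-identical copies were lost or could be split among them. The rows PAG1_1 (69 counts) and PAG1_2 (8 counts) were left out because of their suffix, and because PAG1 is the name or former name of 2 unrelated genes. A separate row named IFN-TAU held 22 counts, 7 in vivo, 0 in serum and 15 in serum-free embryos.

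PAG2 was low in serum embryos and present in every embryo of the other conditions. In the in vivo males A1, A2, A3, A4 and A8 its level was 48.5, 119.5, 27.2, 7.07 and 10.2 CPM. In the in vivo females A6, A7 and A9 it was 13, 5.4 and 5.51 CPM. All 8 in vivo embryos therefore had PAG2, from 23 to 682 counts.

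In the serum males B1, B5 and B7, PAG2 was at 0 counts. In the serum females B2, B3, B4, B6 and B8 its level was 6.63, 3.94, 0, 3.32 and 0.182 CPM. Thus 4 of the 8 serum embryos were at 0, and the highest of them lay below 6 of the 8 in vivo embryos.

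In the serum-free males C1, C2, C4, C6 and C7 the PAG2 level was 0.572, 33.0, 7.04, 0.741 and 161 CPM. In the serum-free females C3, C8 and C10 it was 1.52, 8.53 and 1.74 CPM. Embryos C1 and C6 stood at 3 counts, the detection floor, and C7 had the highest level of the 24 embryos.

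**Figure D2:**
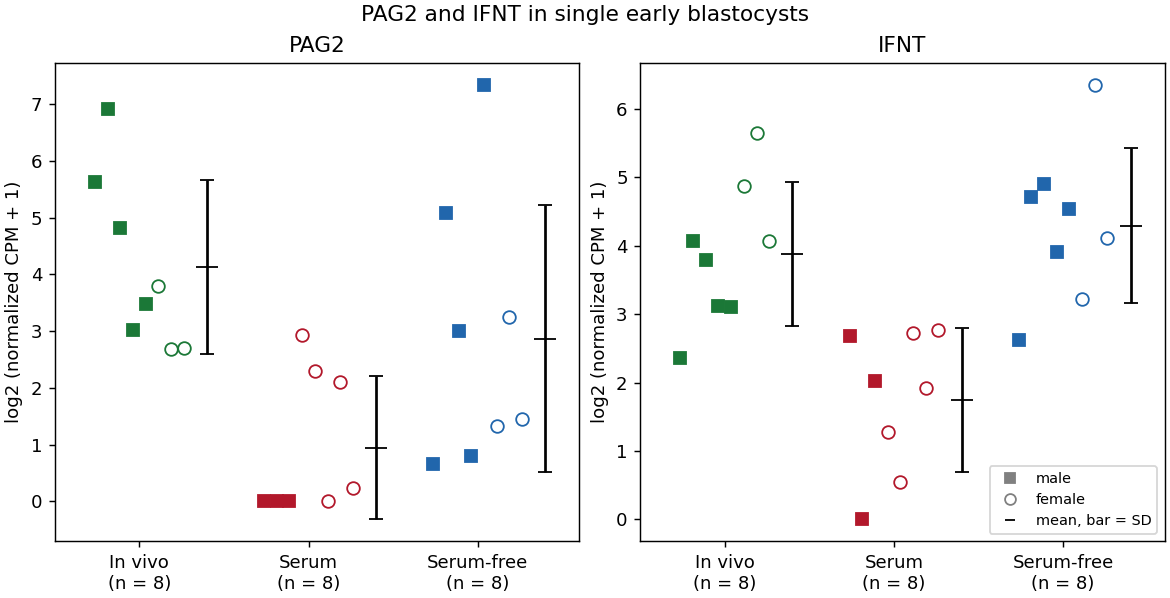
Level of PAG2 (left) and IFNT (right) in each of 24 early blastocysts, on the y axis as log2 of normalized CPM plus 1, by condition on the x axis. Filled squares are males, open circles are females, and the black bars give the mean and SD of the 8 embryos on this log scale. Both genes are lowest in serum embryos, and the PAG2 levels of serum-free embryos run from 0.572 to 161 CPM.

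The mean PAG2 level was 29.5 ± 39.2 CPM in vivo, 1.76 ± 2.56 CPM in serum and 26.8 ± 55.5 CPM in serum-free embryos (SD, n = 8 each). Medians were 11.6, 0.0909 and 4.39 CPM. The in vivo mean fell to 16.7 CPM without A2, below the serum-free mean, and the serum-free mean fell to 7.59 CPM without C7, so the order of these 2 means rested on single embryos. Their embryos overlapped widely, with in vivo the higher in 45 of 64 pairs. The serum mean fell to 1.06 CPM without B2 and was the lowest in each case.

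IFNT had at least 1 count in 23 of the 24 embryos and reached the floor of 3 counts in 22. In the in vivo males A1, A2, A3, A4 and A8 its level was 4.11, 15.8, 12.8, 7.73 and 7.59 CPM. In the in vivo females A6, A7 and A9 it was 28.3, 49.1 and 15.8 CPM. The 3 in vivo females all had more IFNT than any in vivo male, although A9 exceeded A2 only by a small margin. How many of all genes separate these females from the males was not counted.

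In the serum males B1, B5 and B7 the IFNT level was 5.42, 0 and 3.07 CPM. In the serum females B2, B3, B4, B6 and B8 it was 1.42, 0.464, 5.60, 2.79 and 5.82 CPM. Serum male B5 had no IFNT count in the deepest library of the series, which allows a level of up to 0.337 CPM.

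In the serum-free males C1, C2, C4, C6 and C7 the IFNT level was 5.15, 25.3, 29, 14.1 and 22.1 CPM. In the serum-free females C3, C8 and C10 it was 8.30, 80.8 and 16.3 CPM. Of these 8 embryos 7 lay above every serum embryo, and the exception was C1.

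The mean IFNT level was 17.7 ± 14.7 CPM in vivo, 3.07 ± 2.35 CPM in serum and 25.1 ± 23.9 CPM in serum-free embryos (SD, n = 8 each), with medians of 14.3, 2.93 and 19.2 CPM. Serum-free and in vivo embryos were the neighbours in this order that overlapped most, with in vivo the higher in 23 of 64 pairs.

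Embryos of 1 condition differed from each other more in these genes than in most others. The biological coefficient of variation, the spread between embryos that remains after counting error, was 1.29 for PAG2 and 0.818 for IFNT in the fit of in vivo and serum embryos, against a median of 0.376 over the 7339 genes tested. Only 0.0136% of those genes had a higher value than PAG2, and 2.26% a higher value than IFNT. The genes were not matched for level. The fit held condition but not sex, so differences between the sexes count in this spread.

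The comparison of in vivo with serum embryos asks how far culture with serum departs from development in the mother. Both PAG2 and IFNT were lower in serum. PAG2 was 16.6-fold higher in vivo (log2 fold change 4.05, SE 0.98, 95% interval 2.01 to 6.09, adjusted p = 0.00512 by the edgeR quasi-likelihood test). IFNT was 5.69-fold higher in vivo (log2 fold change 2.51, SE 0.65, 95% interval 1.16 to 3.86, adjusted p = 0.00783). A gene was called differentially expressed at an adjusted p under 0.05 and at least a 2-fold change, which 13.7% of the 7339 genes tested were, including 6.81% that were higher in vivo. Both genes entered this test only because every in vivo embryo held at least 15 counts, so that they were tested through the group in which they were high.

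In vivo was the higher in 62 of 64 pairs of embryos for PAG2 and in 61 of 64 for IFNT, so neither gene separated the groups fully. A complete separation was seen for 7.13% of the genes tested here, for 0.971% between in vivo and serum-free and for 2.37% between serum and serum-free embryos, where neither gene separated the groups either. Without in vivo male A2 the PAG2 log2 fold change was 3.22 (adjusted p = 0.0167), and without serum female B2 it was 4.76 (adjusted p = 0.00176).

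In vivo and serum-free embryos were not distinguished by either gene. The log2 fold change of PAG2 was 0.13 (95% interval -1.78 to 2.03, adjusted p = 0.955) and that of IFNT was -0.51 (95% interval -1.56 to 0.53, adjusted p = 0.603), while 2.24% of 7314 genes tested were differentially expressed. The intervals leave room for differences of over 2-fold in PAG2 in either direction. Without C7 the PAG2 value became 1.97 (adjusted p = 0.145) and without A2 it became -0.70 (adjusted p = 0.727), so the direction of this difference rested on single embryos.

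Between the 2 in vitro systems, IFNT was 8.18-fold lower with serum (log2 fold change -3.03, SE 0.67, 95% interval -4.44 to -1.62, adjusted p = 0.00911), where 8.97% of 7181 genes tested were differentially expressed, including 5.07% that were lower with serum. Here too IFNT entered through its high group, the serum-free embryos. PAG2 did not reach the count minimum in either group and was outside this test. Admitting genes that reached the minimum in any of the 3 conditions, a choice made after seeing the data, gave PAG2 a log2 fold change of -3.93 (SE 1.25, 95% interval -6.53 to -1.33, adjusted p = 0.0391, with 8.51% of 7557 genes called). Serum-free was the higher in 52 of 64 pairs of embryos for PAG2 and in 61 of 64 for IFNT. The comparisons with serum share the same 8 serum embryos.

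**Figure D3:**
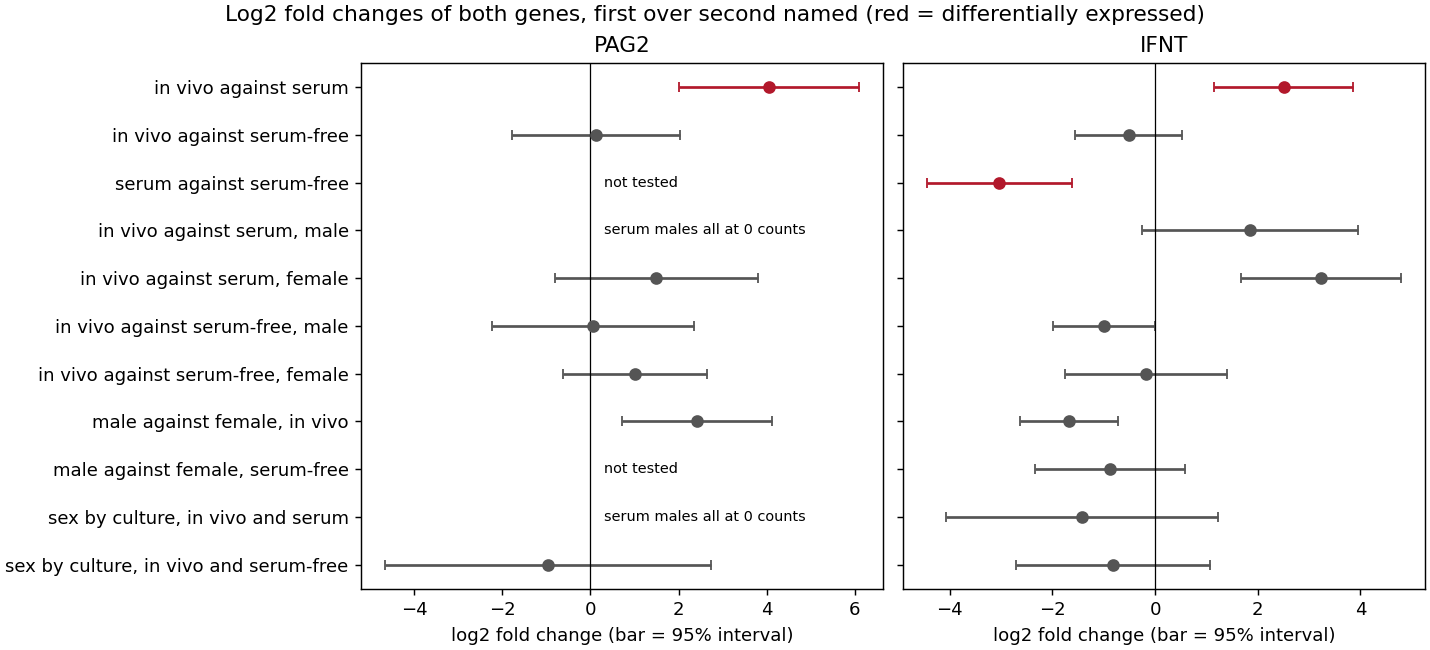
Log2 fold changes of PAG2 (left) and IFNT (right) on the x axis, first over second named group, with 95% intervals, for each comparison on the y axis; the sex by culture lines give the change in males minus that in females. Red marks differential expression. No value is drawn for PAG2 where it was outside the test or where the serum males were all at 0 counts; IFNT was lower in serum against both other conditions (log2 fold changes 2.51 and -3.03).

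Within each sex the comparison with serum rested on fewer embryos. PAG2 was at 0 in all 3 serum males, whose libraries held 15812941 counts in all. Taking 3 counts per library as the floor, PAG2 was at least 60.3-fold lower in serum males than in the 5 in vivo males, and at least 33.0-fold lower when A2 was left out. Against the 5 serum-free males it was at least 57.5-fold lower, and at least 14.7-fold lower when C7 was left out. Serum-free males C1 and C6, at 3 counts each, stood at that floor and are not told apart from the serum males, so this bound was carried by C7 and C2. PAG2 was differentially expressed between in vivo and serum males (adjusted p = 0.00407), as were 13.3% of 7762 genes tested, but it entered that test only through the in vivo males, the group in which it was high. In females the PAG2 log2 fold change was 1.5 (95% interval -0.80 to 3.79, adjusted p = 0.429).

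The serum males also had fewer genes with a count than most other embryos, 11735 to 12390, against 12348 to 14732 in serum females and 12943 to 14381 in the other conditions. The part this has in the absence of PAG2 was not tested. Serum male B5, at 0 counts for both genes, had the largest library.

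IFNT was 9.41-fold higher in in vivo than in serum females (log2 fold change 3.23, SE 0.70, 95% interval 1.68 to 4.79), but with an adjusted p of 0.0740 it was not called, where 0.418% of 8138 genes were. Without B2 it passed, with a log2 fold change of 3.07 and an adjusted p of 0.0274. In either sex, IFNT entered the test against serum only through the in vivo embryos, the group in which it was high. In males its log2 fold change was 1.85 (95% interval -0.25 to 3.95, adjusted p = 0.198). Against serum-free embryos of the same sex, neither gene was differentially expressed: the IFNT values were -1.0 in males (95% interval -1.99 to -0.00338, adjusted p = 0.277) and -0.17 in females (95% interval -1.76 to 1.41, adjusted p = 0.944), and the PAG2 values were 0.05 in males (95% interval -2.23 to 2.34, adjusted p = 0.986) and 1.01 in females (95% interval -0.63 to 2.65, adjusted p = 0.596), where 0.966% of genes in males and 0.304% in females were called. The sizes and directions rested on single embryos. In males PAG2 ran from -0.83 without A2 to 2.05 without C7. In females PAG2 ran from 0.46 without A6 to 2.28 without C8, and IFNT from -0.68 without A7 to 1.36 without C8.

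Whether the culture difference itself depended on sex was tested with an interaction term. For PAG2 in in vivo and serum embryos the adjusted p was 0.664 (unadjusted p = 0.00178), a fit in which the serum males at 0 set the size of the term. For IFNT in the same fit the term was -1.43 on the log2 scale (95% interval -4.07 to 1.22, adjusted p = 0.998). No gene passed in this fit by edgeR (0% of 8446), with 436 genes at an unadjusted p under 0.05 and 3 genes called without serum male B1, while DESeq2 called 14 genes, PAG2 among them (adjusted p = 0.00836). In in vivo and serum-free embryos the terms were -0.96 for PAG2 (95% interval -4.66 to 2.74) and -0.82 for IFNT (95% interval -2.70 to 1.06), with 0% of 8425 genes called, 556 at an unadjusted p under 0.05, and 5 called by DESeq2.

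Within the in vivo embryos, mean PAG2 was higher in males and mean IFNT in females, and neither difference passed the test. The mean PAG2 level was 42.5 ± 46.1 CPM in 5 males and 7.96 ± 4.33 CPM in 3 females (SD), with the male higher in 13 of 15 pairs. The mean IFNT level was 9.60 ± 4.63 CPM in males and 31.1 ± 16.8 CPM in females, with the male higher in 0 of 15 pairs. The share of all genes with such a separation was not counted. The log2 fold change of male over female was 2.42 for PAG2 (SE 0.79, adjusted p = 0.180) and -1.68 for IFNT (SE 0.45, adjusted p = 0.0949), and 0.653% of 7963 genes passed. Without A2 the PAG2 value was 1.55.

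In serum embryos, males were at 0 for PAG2 and females had 2.81 ± 2.78 CPM (SD, n = 5), or 1.86 CPM without B2. In serum-free embryos PAG2 was 40.6 ± 68.9 CPM in males (SD, n = 5) and 3.93 ± 3.98 CPM in females (SD, n = 3), but the male was higher in only 8 of 15 pairs and the male mean was 10.3 CPM without C7. IFNT was 19.1 ± 9.55 CPM in serum-free males and 35.1 ± 39.7 CPM in serum-free females, with the male higher in 7 of 15 pairs (log2 fold change -0.87, adjusted p = 0.809, with 0.139% of genes called). Without C8 the female mean was 12.3 CPM and the log2 fold change turned to 0.66. Neither gene reached the count minimum for the comparison of all males with all females (0.946% of genes called) or for that within serum embryos (0.173% of genes called).

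Across all 24 embryos PAG2 and IFNT were loosely related (Pearson r = 0.418, permutation p = 0.0428, Benjamini-Hochberg adjusted p = 0.171 over 4 relations; Spearman rho = 0.483, permutation p = 0.0179, adjusted p = 0.0716). Leaving out the 2 embryos farthest from the median of PAG2 gave r = 0.384. Serum embryos were low in both genes, so the pooled values also hold the difference between conditions. They do not measure a relation among embryos of 1 condition. Within conditions the relation did not hold in the same direction. Spearman rho was -0.452 in vivo (exact permutation p = 0.267), -0.317 in serum (exact permutation p = 0.444) and 0.762 in serum-free embryos (exact permutation p = 0.0368, adjusted p = 0.0735). The corresponding Pearson r values were -0.325, -0.377 and 0.497 (exact permutation p = 0.429, 0.359 and 0.217), and they became -0.229, -0.00575 and 0.894 without the 2 farthest embryos.

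**Figure D4:**
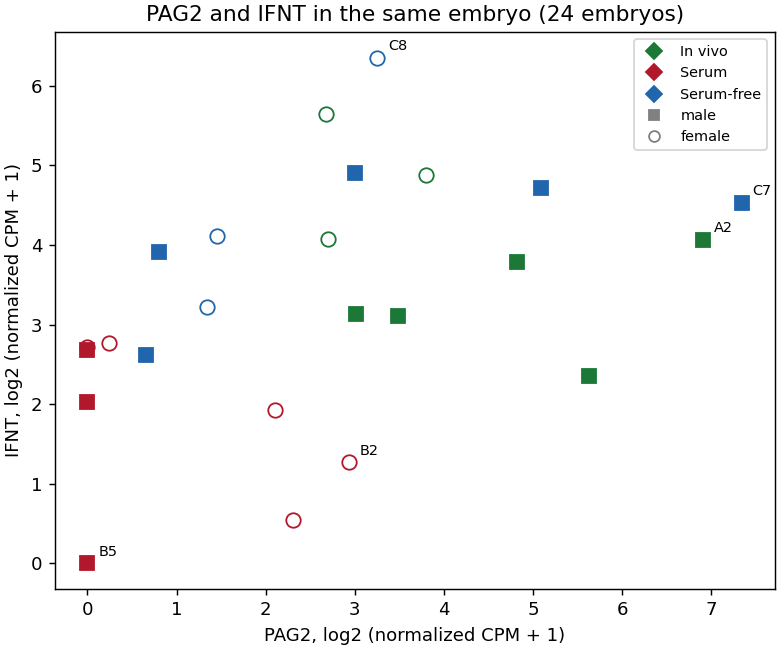
IFNT (y axis) against PAG2 (x axis) in the same embryo, both as log2 of normalized CPM plus 1, for 24 embryos coloured by condition, with squares for males and circles for females. Serum embryos lie to the lower left, and the embryos with the most PAG2 (C7 and A2) are not the one with the most IFNT (C8); Spearman rho was 0.483 over all embryos.

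The genes whose levels across the 24 embryos ran most like IFNT, of 7555 ranked by Spearman rho, were CYSTM1 (a small membrane protein, 0.914), TPD52 (0.878), DDT (D-dopachrome tautomerase, 0.863), TXN (thioredoxin, 0.857) and METTL13 (a methyltransferase, 0.846). Those most like PAG2 were DSC2 (desmocollin, a cadherin of desmosomes, 0.805), TMEM62 (0.794), TTC21B (a protein of cilia, 0.783), PRSS8 (prostasin, a membrane serine protease, 0.778) and PLS1 (an actin-bundling protein of microvilli, 0.776). The 2 lists share no gene. These correlations over libraries that also differ in condition and depth are descriptions. Inside serum embryos, where 4 of 8 PAG2 values are 0, rho with PAG2 ran from -0.203 for TTC21B to 0.71 for PLS1, and inside in vivo embryos from 0.167 for PLS1 to 0.762 for DSC2.

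Structural markers of the trophectoderm moved with both genes. KRT8 and KRT18, the keratin pair of simple epithelia, were 8.07-fold and 6.15-fold higher in vivo than in serum (adjusted p = 0.00303 and 0.00135), and KRT19 was 11.2-fold higher (adjusted p = 1.53e-05). With GATA3, 4 of the 5 trophectoderm markers tested besides PAG2 were higher in vivo, the exception being TFAP2C. Of all 7339 genes tested, 6.81% were called higher in vivo. KRT19 and GATA3 entered this test only through the in vivo embryos, the group in which they were high. The summed level of the 6 markers in the table besides PAG2 was 7315 to 14674 CPM in vivo, 314 to 5116 CPM in serum (from 395 CPM without B2) and 4974 to 28151 CPM in serum-free embryos. The CPM were summed without scaling, so KRT8 weighed most on average (mean 8976 CPM in vivo and 1099 CPM in serum). Leaving out serum female B8, which had the highest sum of the serum embryos, moved the KRT8 log2 fold change from 3.01 to 3.71. The embryo with the most PAG2, C7, also had the highest marker sum. Whether the lower PAG2 and IFNT of serum embryos goes beyond their lower keratins was not tested.

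The marker sums and the secreted products did not rank the serum embryos alike. B2, with the lowest marker sum (314 CPM), had the most PAG2 of the serum embryos. B8, with the highest sum (5116 CPM), had 1 PAG2 count and the most IFNT. CDX2, a defining trophectoderm factor, had 89 counts in all 24 embryos and fell below the minimum for testing.

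**Figure D5:**
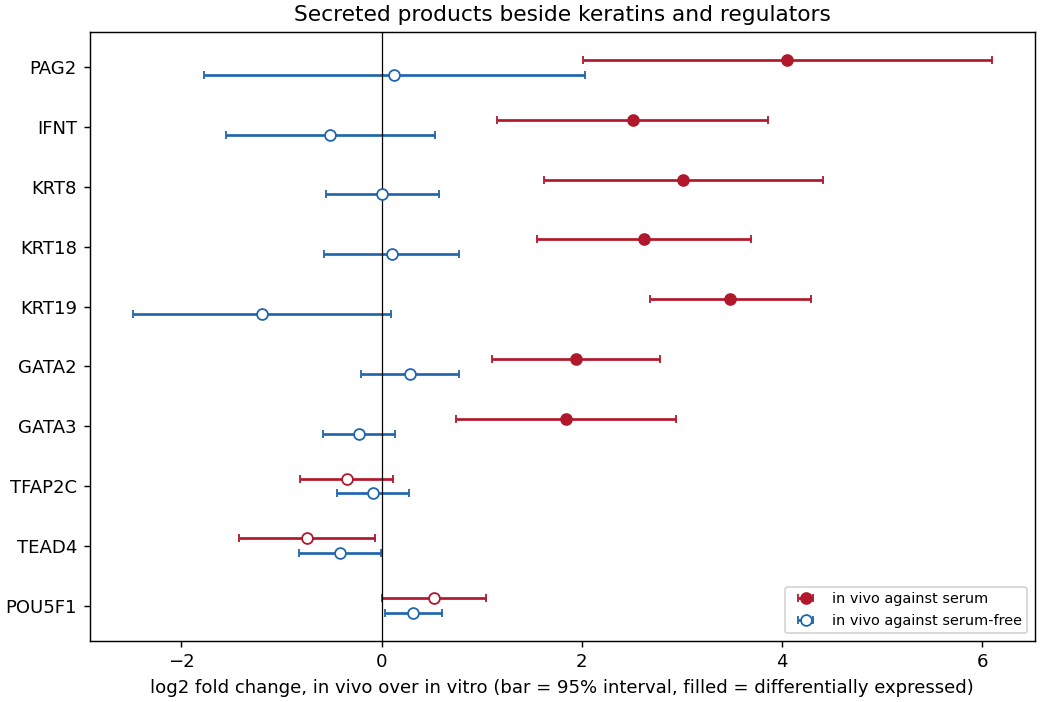
Log2 fold changes on the x axis (in vivo over in vitro, with 95% intervals) of PAG2 and IFNT beside keratins and regulators, named on the y axis. Red compares with serum and blue with serum-free embryos, and filled points are differentially expressed. The keratins, GATA2 and GATA3 lie to the right of 0 against serum, as do PAG2 (4.05) and IFNT (2.51), and no gene drawn is called against serum-free embryos.

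Among the transcription factors known to act on the IFNT promoter or on the trophoblast lineage, 8 of 20 were tested against serum and 2 were called, both GATA factors. GATA2 was 38.2 ± 8.08 CPM in vivo and 9.80 ± 7.5 CPM in serum (SD, n = 8 each), a 3.85-fold difference (adjusted p = 0.00193). GATA3 was 83.5 ± 16.5 and 23.0 ± 20.3 CPM, a 3.59-fold difference (adjusted p = 0.0141). Both were also lower in serum than in serum-free embryos, 3.19-fold for GATA2 (adjusted p = 0.0173) and 4.22-fold for GATA3 (adjusted p = 0.0166). Of 7181 genes tested there, 5.07% were called lower with serum, and both GATA factors entered through the serum-free embryos, again their high group. Neither was called between in vivo and serum-free embryos (log2 fold changes 0.28 and -0.23).

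The other regulators did not pass. Against serum, the log2 fold change was -0.35 for TFAP2C (adjusted p = 0.238), -0.75 for TEAD4, a factor that sets up the trophectoderm (adjusted p = 0.0895), and 0.52 for POU5F1, a pluripotency factor that represses IFNT (adjusted p = 0.121). The median over the 8 tested was -0.13, against -0.05 for all genes tested. ETS2, DLX3, CDX2 and EOMES, the first 3 of which activate the IFNT promoter, did not reach the minimum. DLX3 stood at 5.55 ± 3.86 CPM in vivo, 0.495 ± 0.769 CPM in serum and 4.50 ± 5.44 CPM in serum-free embryos, and ETS2 at 3.83 ± 3.30, 2.06 ± 1.33 and 3.90 ± 2.75 CPM (SD, n = 8 each). EOMES held 22 counts in all. In rank over the 24 embryos IFNT ran closer to GATA3 (rho 0.805) and GATA2 (0.749) than to TFAP2C (0.0461). The other listed regulators ranked were MSX2 (0.481), POU5F1 (0.32), CREBBP (-0.133), TEAD4 (-0.303) and EP300 (-0.575). PAG2 had rho 0.764 with KRT18, 0.610 with GATA2 and 0.593 with GATA3. With TEAD4 it was -0.606, and the remaining regulators lay from -0.276 (TFAP2C) to 0.263 (POU5F1). All these rho values also hold the difference between conditions and are descriptions.

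Of the growth factor and cytokine signals that raise IFNT, 1 of 11 was tested, the fibroblast growth factor receptor FGFR2, with a log2 fold change of 0.59 against serum (adjusted p = 0.345). The receptor side of the interferon pathway was measured for 5 of 9 genes. JAK1, a kinase bound to the type I interferon receptor, was 2.23-fold higher in vivo than in serum (adjusted p = 0.00379). IRF1, an interferon-regulated transcription factor, was 2.95-fold higher (adjusted p = 0.0357), a call that was lost when any of 6 single embryos was left out. It entered that test only through the in vivo embryos, the group in which it was high. IRF1 was also 2.01-fold higher in vivo than in serum-free embryos (adjusted p = 0.00498), just over the 2-fold limit, and 8 of the 16 fits that left out a single embryo took it below that limit. The receptor subunit IFNAR1 was not called (log2 fold change 0.54 against serum, adjusted p = 0.296).

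Genes that interferon induces in responding cells were low in the embryos themselves. Of 22 in the list, 20 were in the table and 1 was tested, EPSTI1, with a log2 fold change of -0.69 against serum (adjusted p = 0.189). It also had the highest mean level of them, 7.85 CPM over the 24 embryos. No other type I interferon row reached the minimum for testing, and the highest, IFNB2, held 81 counts.

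The relatives of the PAG and TKDP proteins outside the trophoblast families differed in how far they could be measured. None of 6 other aspartic peptidase rows in the table was tested. Of the 8 Kunitz domain rows in the table, 3 were tested and all 3 were higher in vivo than in serum, with a median log2 fold change of 1.29 against -0.05 for all genes tested. Of all 7339 genes tested, 6.81% were called higher in vivo. SPINT1 entered this test only through the in vivo embryos, the group in which it was high. SPINT1 and SPINT2, membrane inhibitors of serine proteases in epithelia, were 6.47-fold (adjusted p = 0.0120) and 2.44-fold higher (adjusted p = 0.00310), and APLP2, a relative of the amyloid precursor, was 2.03-fold higher (adjusted p = 0.00545). SPINT1 and SPINT2 were also lower in serum than in serum-free embryos, by 9.88-fold and 2.03-fold (adjusted p = 0.00959 and 0.0261). Of 7181 genes tested there, 5.07% were called lower with serum, and SPINT1 again entered only through its high group. The APLP2 and SPINT2 values at 2.03-fold lie at the limit, and several settings take them below it. Among 13 other products of the trophoblast, 2 were tested against serum and neither was called: TIMP1, an inhibitor of matrix metalloproteinases, had a log2 fold change of 0.47 (adjusted p = 0.399) and CYP19A1, aromatase, 0.66 (adjusted p = 0.382).

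Markers of other cells gave a mixed picture beside these results. The summed level of the 5 inner cell mass markers was 256 to 345 CPM in vivo and 218 to 366 CPM in serum. Of that list 3 were tested. SOX2 was 2.44-fold higher in serum (adjusted p = 0.0238), a call lost without serum female B3 (adjusted p = 0.0688) and in 2 of 9 other settings. POU5F1, the most abundant of the list, had a log2 fold change of 0.52 towards in vivo (adjusted p = 0.121). The median of the 3 was -0.22. The summed level of the 6 hypoblast markers was 343 to 596 CPM in vivo and 27.2 to 243 CPM in serum (from 58.5 CPM without B2). Most of this sum was PDGFRA (mean 435 CPM in vivo and 107 CPM in serum), which was 4.03-fold higher in vivo (adjusted p = 0.00114). Of the hypoblast list 3 were tested and only PDGFRA was called, with a median log2 fold change of 0.36 over the 3. The 6 cumulus and granulosa markers summed to at most 30.1 CPM in any embryo, reached in B2, and to at most 26.3 CPM without it.

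The markers of leukocytes, oviduct and sperm were low, and their sum, but not every marker, was highest in serum. Their sum over 6 genes was 8.91 to 33.6 CPM in serum (to 15.4 CPM without B2), 1.93 to 8.64 CPM in vivo and 1.00 to 8.72 CPM in serum-free embryos, so that every serum embryo lay above every other embryo. Most of the serum counts were of OVGP1, the oviduct glycoprotein (344 counts, against 46 in vivo and 60 in serum-free embryos), followed by CD14 of monocytes (88, 64 and 81 counts) and TNP1 of sperm (85, 2 and 4 counts). Of the other leukocyte markers, PTPRC held 22, 11 and 10 counts, while CD3E was highest in vivo, with 19, 43 and 7. PRM1 of sperm held 2, 0 and 5. None of the 6 reached the minimum for testing. The part of these cell types in the PAG2 and IFNT differences was not tested.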

How the data were processed

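Per the labels and the study's methods, the authors amplified 1 ng of RNA per embryo with a non-stranded SMARTer kit, sequenced paired ends, trimmed 12 bases and low-quality ends (limit 0.03), and mapped to UMD 3.1 in CLC Genomics Workbench. The authors deposited raw counts of unique exon fragments per gene. Here edgeR 4.0.16 (R 4.3.3) fitted quasi-likelihood models to these counts, over the embryos compared, with TMM normalization and genes with at least 15 counts in every embryo of at least 1 group. Adjusted p-values are Benjamini-Hochberg values over all genes tested, called under 0.05 and at 2-fold. Levels are CPM, with 1 added before log2. DESeq2 1.42.0, the edgeR exact test, permutation tests and other filters were alternatives. Scripts were tested on simulated data.

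Members and lists were chosen with earlier results of these data known. Named from each list were up to 4 called genes with the largest change, 9 fixed regulators whatever their values, and the 5 genes closest to each member by Spearman rho. Other genes were named after their values were seen. Floors cover counting error only. No sequence is shown, and no coordinate, since the reference table is of another build.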

Additional observations from a re-analysis of the deposited data

Results flagged for a closer look

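Single embryos stood far from the other embryos of their group, by Dixon's criterion on CPM, in 4 of 12 sets of embryos, which chance meets in about 1 of 20 separate sets of normally distributed values. The sets overlap and CPM values are skewed, and on the log2 scale of CPM plus 1 none of the 4 met the criterion. The PAG2 level of in vivo male A2 was 119.5 CPM, where the next highest of the 8 in vivo embryos had 48.5 CPM. The PAG2 level of serum-free male C7 was 161 CPM, where the next had 33.0 CPM, counted among the 8 serum-free embryos and again among the 5 males. The IFNT level of serum-free female C8 was 80.8 CPM, where the next of the 8 had 29 CPM. The gap to the next embryo as a share of the range was 0.303 for A2, 0.337 for C7 and 0.387 for C8 on the log2 scale. For the other gene, IFNT was 15.8 CPM in A2 and 22.1 CPM in C7, and PAG2 was 8.53 CPM in C8.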

How the results depend on the processing

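Of 366 values of PAG2 and IFNT under other settings, 357 kept their side of the threshold, 9 came to pass it, none lost a call and no call changed direction; 18 values that were not called changed sign. The number of the 2 genes called fell to 0 when 15 counts were required in every embryo, in in vivo against serum, in serum against serum-free and in in vivo against serum males. Neither gene was then tested in these comparisons, so the 366 values hold no entry for them there. In serum against serum-free embryos it was 2 with no count filter, and 2 with the filter over the 3 conditions that was chosen after seeing the data. In in vivo against serum females it was 1 by the edgeR exact test, by DESeq2 and with 1 fit over the 24 embryos (IFNT each time), and 0 to 1 when single embryos were left out. Between in vivo males and females it was 1 by the exact test, 1 by DESeq2 (IFNT, adjusted p = 0.0156 and 0.0160) and 2 with no count filter. For the sex by culture term with serum it was 1 by DESeq2. The cause of the shifts in which the genes were tested was not examined. Leaving out single embryos gave PAG2 log2 fold changes of 3.22 to 4.76 for in vivo against serum, and IFNT 2.08 to 2.72. The PAG2 value was 6.06 with 1 fit over the 24 embryos and 3.17 by the permutation test on log2 CPM. For in vivo against serum-free embryos DESeq2 gave PAG2 1.86 (adjusted p = 0.149). Without serum male B1 the SPINT1 value against in vivo was 3.42, and without C7 the KRT19 value of serum against serum-free was -3.14. The SOX2 call against serum was lost without B3 (adjusted p = 0.0688), with no count filter (adjusted p = 0.0517) and by the permutation test (adjusted p = 0.0791). No paired analysis was possible because the replicate codes of the conditions are embryo names that pair no samples. Depth limits the 11 low family rows, most of which hold a few counts per embryo.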
